A study of Mus musculus with 9 samples.

Results

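The apolipoprotein transcripts Apoa1, Apoa2, Apoa4, Apoa5, Apob, Apoc1, Apoc2, Apoc3, Apoe and Apoh were followed across 9 mouse tumour libraries. They were chosen by gene name, 10 of the 22053 rows of a table of protein-coding genes. N134 cells come from a mouse pancreatic neuroendocrine tumour. The N134-RHAMMB line carries the name of RHAMMB, 1 form of RHAMM, a receptor for hyaluronan. Liver metastases of N134-RHAMMB (metastases 1, 2 and 3), subcutaneous tumours of N134-RHAMMB (N134-RHAMMB tumours 1, 2 and 4) and subcutaneous tumours of N134 (N134 tumours 1, 2 and 3) gave 3 libraries a group. All grew in NOD.Cg-Prkdc scid Il2rg tm1Wjl/SzJ (NSG) mice, which lack mature lymphocytes and natural killer cells but keep their own liver, vessels and macrophages. Subcutaneous or tail vein injection was used, so the site of a metastasis and its route cannot be told apart. Each label names a cell line and does not say whether it is 1 clone, how RHAMMB was introduced, the age of the mice or whether libraries came from separate animals. The p-values therefore reflect the spread of these samples alone, and part of it may be technical.

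Apolipoproteins coat the lipid particles that carry triglyceride and cholesterol in blood. Apolipoprotein B is the structural protein of very-low-density lipoprotein (VLDL) and of the particles it becomes, and apolipoproteins A-I and A-II are the main proteins of high-density lipoprotein (HDL). The C apolipoproteins and A-V set how fast lipoprotein lipase empties a particle, and apolipoprotein E is a ligand that lipoprotein receptors bind. The hepatocyte is the main source of most of them, the enterocyte makes several, and macrophages and astrocytes also make apolipoprotein E. RNA was measured as FPKM (fragments per kilobase and per M, mega, fragments mapped), which is per length and so allows levels to be compared between genes.

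The estimated depth was 14.5 to 18.2 M fragments per library, at which a single fragment in a 2 kb transcript equals 0.0275 to 0.0346 FPKM. The beta cell markers summed to 43694 to 49138 FPKM in metastases, against 32310 to 38055 FPKM in N134-RHAMMB and 38233 to 42218 FPKM in N134 tumours, so the defining beta cell transcripts were abundant in all 9 libraries. The 25 hepatocyte markers summed to 5584 to 5959 FPKM in metastases, against 110.4 to 207 FPKM in N134-RHAMMB and 107 to 151 FPKM in N134 tumours. Among the libraries, N134-RHAMMB tumours 2 and 4 stood apart with skeletal muscle transcripts, whose list summed to 181 and 218 FPKM there, to 17.9 FPKM in N134-RHAMMB tumour 1 and to at most 22.8 FPKM elsewhere. In bulk RNA, fewer cells of a type and less RNA per cell cannot be told apart.

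Of the 10 genes, 7 lay in 2 clusters. On chromosome 9 of GRCm38, Apoa1 (ENSMUSG00000032083, 46228580 to 46230466), Apoc3 (ENSMUSG00000032081, 46232933 to 46235636), Apoa4 (ENSMUSG00000032080, 46240696 to 46243459) and Apoa5 (ENSMUSG00000032079, 46268633 to 46271919) spanned 43340 bp. Apoc3 lies on the minus strand there and the other three on the plus strand. On chromosome 7, Apoc2 (ENSMUSG00000002992, 19671579 to 19677941), Apoc1 (ENSMUSG00000040564, 19689481 to 19692660) and Apoe (ENSMUSG00000002985, 19696109 to 19699188), all on the minus strand, shared 27610 bp with Apoc4. Apoa2 (ENSMUSG00000005681, chromosome 1, 171225054 to 171226379), Apob (ENSMUSG00000020609, chromosome 12, 7977648 to 8016835) and Apoh (ENSMUSG00000000049, chromosome 11, 108343354 to 108414396) lie alone on the plus strand.

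The 100 bases before the most upstream annotated start are shown for 4 genes, from the RefSeq promoter table of GRCm38.p6, which held 8 of the 10 (not Apoc1 and Apoc3). Apoa1 and Apob are the structural proteins of HDL and VLDL, Apoa5 was listed at 0 in every subcutaneous tumour, and Apoe had the highest level in every group. Capitals mark matches, on either strand, to TATAAA (the TATA box core) and to TGTTTGC and TGTTTAC (cores that forkhead factors bind).
Apoa1, chr9:46228480-46228579, plus strand: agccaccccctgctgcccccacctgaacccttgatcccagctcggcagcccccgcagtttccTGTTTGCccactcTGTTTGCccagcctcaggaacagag
Apoa5, chr9:46268508-46268607, plus strand: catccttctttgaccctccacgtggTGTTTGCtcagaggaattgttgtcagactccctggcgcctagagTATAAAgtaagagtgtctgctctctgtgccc
Apob, chr12:7977548-7977647, plus strand: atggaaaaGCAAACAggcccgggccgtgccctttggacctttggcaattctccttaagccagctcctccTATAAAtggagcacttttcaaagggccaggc
Apoe, chr7:19699189-19699288, minus strand: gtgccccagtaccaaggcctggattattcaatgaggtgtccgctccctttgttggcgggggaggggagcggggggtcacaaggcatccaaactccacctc
In Apoa1 the letters TGTTTGC occurred 2 times, from 38 to 32 and from 25 to 19 bases upstream of the start. Apoa5 and Apob each had TATAAA from 31 to 26 bases upstream, and TGTTTGC from 75 to 69 bases upstream in Apoa5 and from 92 to 86 in Apob. The windows of Apoa2 and Apoh, not printed, held TGTTTAC from 77 to 71 and from 71 to 65 bases upstream. For Apoh the window lies before a RefSeq start at 108395297, inside the annotated gene and not at its most upstream end. None of the 3 motifs was in the windows of Apoe, Apoa4 and Apoc2. Among 32851 RefSeq promoter windows of the same length, TATAAA was in 5.56%, TGTTTGC in 1.61% and TGTTTAC in 1.12%, and no matches overlapped in the 4 sequences. Those windows end at the RefSeq start, while those of Apoa1, Apob and Apoa4 end at a gene start further upstream. The shares are therefore only a rough guide for these genes. A match describes letters and is not a measured binding site.

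Comparing metastases with N134-RHAMMB subcutaneous tumours keeps the line the same while the site differs. Every one of the 10 transcripts was higher in each metastasis than in any N134-RHAMMB tumour. Summed over the 10 genes, metastases held 3053, 3528 and 3442 FPKM, against 139, 159 and 227 FPKM in N134-RHAMMB tumours. This was 0.684% to 0.780% of all FPKM in metastases and 0.0308% to 0.0505% in N134-RHAMMB tumours. Limma (adjusted p below 0.05 over all genes tested) called 6.56% of 12854 genes in this comparison, 5.04% higher (648) and 1.52% lower (195). With quantile normalization the split was 630 higher and 314 lower, and 66.7% of calls were higher in place of 76.9%. With library weights it was 1014 higher and 936 lower (52% higher). Apoa4, Apoa5, Apoc2 and Apoh reached the filter (1 FPKM in 3 libraries) only through metastases, so they had to differ, and their values are given with no p-value. The other 6 passed on subcutaneous libraries alone, and all 6 were called higher with a median log2 change of 5.46, beside -0.06 over all genes. Groups did not overlap, in the same direction, in 8.80% of genes tested.

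**Figure D1:**
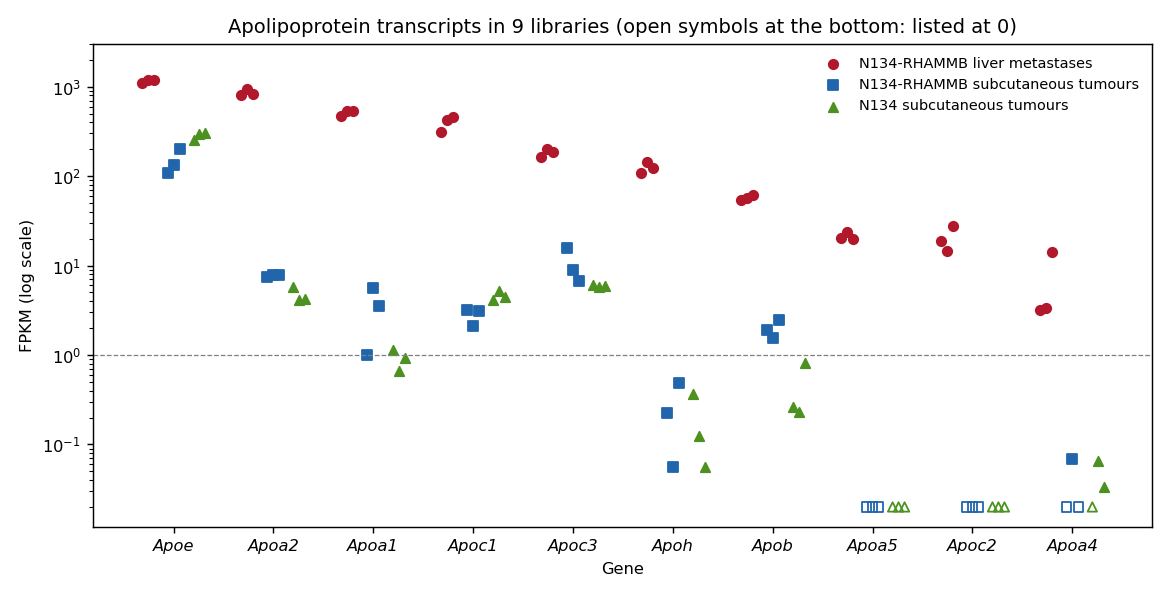
FPKM of the 10 apolipoprotein genes on a log axis, 1 point per library, for N134-RHAMMB liver metastases (circles), N134-RHAMMB subcutaneous tumours (squares) and N134 subcutaneous tumours (triangles). Open symbols at the bottom are libraries where the gene is listed at 0, and the dashed line is 1 FPKM. The 3 metastases lie above all 6 subcutaneous tumours for every gene, and Apoe is the highest gene in every group.

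Of the HDL proteins, Apoa1 stood at 466, 529 and 532 FPKM in metastases, against 1.01, 5.58 and 3.56 FPKM in N134-RHAMMB tumours 1, 2 and 4. Metastases were alike (coefficient of variation 7.37%), while N134-RHAMMB tumour 1 was far below tumours 2 and 4 (67.7% over the 3). The log2 change of FPKM + 1 was 7.02 (SE 0.34, limma adjusted p = 1.62e-07). Apoa2, the other main HDL protein, stood at 808, 932 and 817 FPKM in metastases, against 7.54, 7.88 and 7.75 FPKM in N134-RHAMMB tumours. It rose by 6.61 (SE 0.12, limma adjusted p = 3.35e-10), and its N134-RHAMMB tumours were the most alike among the members above 0 in that group (coefficient of variation 2.23%). Apoa4, made by the enterocyte and in mice also by the liver, stood at 3.18 and 3.32 FPKM in metastases 1 and 2 and at 14.2 FPKM in metastasis 3, against 0, 0.0690 and 0 FPKM in N134-RHAMMB tumours. Metastasis 3 was 4.46 times metastasis 1, the widest spread among metastases in these genes.

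Apob, the structural protein of VLDL, stood at 53.7, 57.4 and 62.0 FPKM in metastases, against 1.89, 1.55 and 2.47 FPKM in N134-RHAMMB tumours. Its level was present but low in all 3 subcutaneous tumours, and it rose by 4.31 (SE 0.19, limma adjusted p = 7.16e-08). Apoh, a plasma protein that binds anionic phospholipids, stood at 109, 142 and 122 FPKM in metastases, against 0.223, 0.0559 and 0.489 FPKM in N134-RHAMMB tumours. All 3 metastases lay far above these tumours. Its annotated 5′ end overlaps Prkca on the other strand, and strand was not given in the sources used here. Prkca stood at 29.0, 13.5 and 20.2 FPKM in metastases, against 20.6, 16.3 and 22.0 FPKM in N134-RHAMMB tumours, ranges that overlap.

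Among the genes that set lipolysis, Apoc1, which slows the uptake of remnant particles, stood at 312, 427 and 460 FPKM in metastases, against 3.22, 2.12 and 3.10 FPKM in N134-RHAMMB tumours. It rose by 6.71 (SE 0.18, limma adjusted p = 2.44e-09). Apoc3, an inhibitor of lipoprotein lipase and of remnant uptake, stood at 165, 200 and 187 FPKM in metastases, against 15.8, 8.83 and 6.73 FPKM in N134-RHAMMB tumours. Tumour 1 held the most of the 3, the opposite of Apoa1, its neighbour on chromosome 9. The log2 change of Apoc3 was 4.09 (SE 0.23, limma adjusted p = 5.64e-07).

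Apoc2, the activator of lipoprotein lipase, stood at 18.9, 14.6 and 27.6 FPKM in metastases and was at 0 in each N134-RHAMMB tumour. Apoa5, which helps lipoprotein lipase at the vessel wall, stood at 20.5, 23.7 and 19.9 FPKM in metastases and was also listed at 0 in those 3 tumours. No fold is given against 0. Gm44805, a predicted protein-coding gene that overlaps Apoc2 on the same strand, stood at 0.386, 2.43 and 0.398 FPKM in metastases and at 0 in the other libraries, so part of the Apoc2 signal could not be assigned to 1 gene. Antisense genes are annotated over Apoa4 and Apoa5, from which reads cannot be told apart without strand.

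Apoe, the receptor ligand, stood at 1097, 1199 and 1200.3 FPKM in metastases, against 109, 133 and 203 FPKM in N134-RHAMMB tumours. It was the 23rd to 25th most abundant of all genes in the metastases. The log2 change was 3.01 (SE 0.19, limma adjusted p = 1.31e-06), the smallest of the 6 members that passed the filter on subcutaneous libraries. The 16 macrophage markers summed to 475, 272 and 292 FPKM in metastases 1, 2 and 3, against 426, 449 and 596 FPKM in N134-RHAMMB tumours 1, 2 and 4. Apoe was thus 2.31, 4.41 and 4.11 times the macrophage sum in metastases and 0.257, 0.297 and 0.341 times in N134-RHAMMB tumours.

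Against N134 tumours the same metastases were also higher in all 10 genes. For Apoa4, Apoa5, Apoc2 and Apoh the filter fixed this. The other 6 did not overlap either, beside 11.4% of genes tested that did not overlap in that direction. Limma called 9.93% of genes, 5.69% higher (732) and 4.23% lower (544), and 57.4% of calls were higher. With quantile normalization 758 were higher and 821 lower, 48% higher. Of the 6 members that passed on subcutaneous libraries, all 6 were called higher, with a median log2 change of 5.77 beside -0.03 over all genes. Apoa1 rose by 8.07, Apoa2 by 7.23, Apoc1 by 6.16, Apob by 5.38, Apoc3 by 4.73 and Apoe by 2.04 (SE 0.19, limma adjusted p = 3.29e-05). This comparison shares its metastases with the one before, and the lines differ as well as the site.

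**Figure D2:**
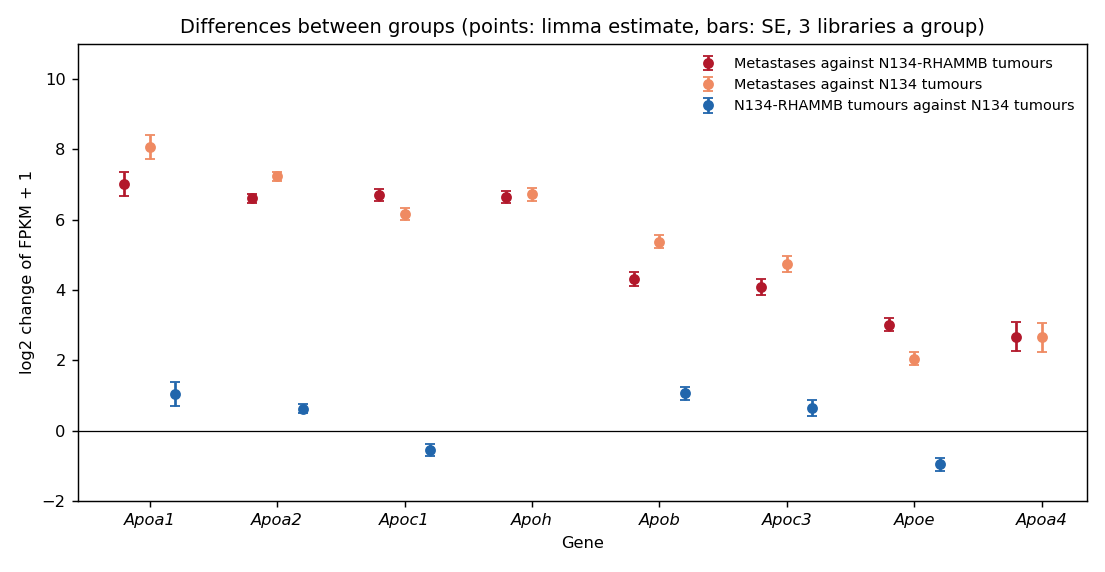
Limma log2 change of FPKM + 1 for each gene (points) with its SE (bars), for metastases against N134-RHAMMB tumours, metastases against N134 tumours and N134-RHAMMB tumours against N134 tumours, 3 libraries a group. Apoa4 and Apoh, under 1 FPKM in all 6 subcutaneous tumours, passed the filter only through metastases and have no point in the third comparison. Their points against metastases are drawn as estimates only, since these genes had to differ. Genes listed at 0 in all subcutaneous tumours are left out. The changes with metastases run from 2.04 to 8.07, and those between subcutaneous tumours from -0.97 to 1.06.

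Under the skin, N134-RHAMMB and N134 tumours shared a site and differed in cell line. No member was called, beside 0.194% of genes tested (0.0778% higher and 0.117% lower, 10 and 15 of 12854). All 6 members that passed the filter on subcutaneous libraries had an unadjusted p under 0.05, as had 1648 genes, 12.8% of those tested. Their median log2 difference was 0.63, beside 0.01 over all genes, and it joins 4 positive and 2 negative values. In 3 members the N134-RHAMMB tumours lay above all N134 tumours (14.0% of genes tested did so) and in 2 below (11.3%). Apob, among these 3, counted in the 6 only through its N134-RHAMMB tumours, so it had to lie higher without overlap. These counts and the median therefore rest in part on the filter.

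Apob measured 1.89, 1.55 and 2.47 FPKM in N134-RHAMMB tumours, against 0.261, 0.230 and 0.815 FPKM in N134 tumours. The groups did not overlap, and the log2 difference was 1.06 (SE 0.19, limma adjusted p = 0.0698). Only the N134-RHAMMB tumours reached 1 FPKM, so among subcutaneous libraries Apob passed the filter through the group where it was higher. The N134-RHAMMB mean was 4.52 times the N134 mean, and 8.03 times without N134 tumour 3. Apoa2 measured 7.54, 7.88 and 7.75 FPKM in N134-RHAMMB tumours, against 5.74, 4.12 and 4.28 FPKM in N134 tumours. It too did not overlap, at 0.62 (SE 0.12, limma adjusted p = 0.102). Apoc3 measured 15.8, 8.83 and 6.73 FPKM in N134-RHAMMB tumours, against 6.12, 5.78 and 5.90 FPKM in N134 tumours, where it varied least of the members above 0 (coefficient of variation 2.91%). Its groups did not overlap, but N134-RHAMMB tumour 4 was close to the N134 tumours (0.65, SE 0.23, limma adjusted p = 0.288).

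Apoe was on the other side. It measured 109, 133 and 203 FPKM in N134-RHAMMB tumours, against 254, 293 and 301 FPKM in N134 tumours, without overlap. The log2 difference was -0.97 (SE 0.19, limma adjusted p = 0.101), so it missed the threshold. It was called without N134-RHAMMB tumour 4 (-1.22, limma adjusted p = 0.0337), without metastasis 2 in the shared fit (-0.97, adjusted p = 0.0445) and with library weights (-1.29, adjusted p = 0.00113). Macrophage markers summed to 426, 449 and 596 FPKM in N134-RHAMMB tumours, against 735, 1046 and 616 FPKM in N134 tumours, a list in which limma called 0 of 16 genes (13 at an unadjusted p under 0.05) and 12 lay lower without overlap. Apoe was 0.257, 0.297 and 0.341 times that sum in N134-RHAMMB tumours, against 0.346, 0.281 and 0.488 times in N134 tumours, and these ranges overlap. The part of macrophages in the Apoe difference was not tested.

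Apoc1, next to Apoe on chromosome 7, measured 3.22, 2.12 and 3.10 FPKM in N134-RHAMMB tumours, against 4.08, 5.14 and 4.44 FPKM in N134 tumours. It lay lower without overlap, at -0.55 (SE 0.18, limma adjusted p = 0.234). Apoa1 measured 1.01, 5.58 and 3.56 FPKM in N134-RHAMMB tumours 1, 2 and 4, against 1.14, 0.663 and 0.922 FPKM in N134 tumours. The groups overlapped through N134-RHAMMB tumour 1, and the log2 difference was 1.05 (SE 0.34, limma adjusted p = 0.247). Tumours 2 and 4, with the higher Apoa1, are those with muscle transcripts. Without both of them the difference was 0.08 (adjusted p = 0.976), and without tumour 1 it was 1.53 (adjusted p = 0.0417). The part of muscle in it was not tested. Apoa4 and Apoh stayed under 1 FPKM in all 6 subcutaneous tumours, and Apoa5 and Apoc2 were listed at 0 in each.

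**Figure D3:**
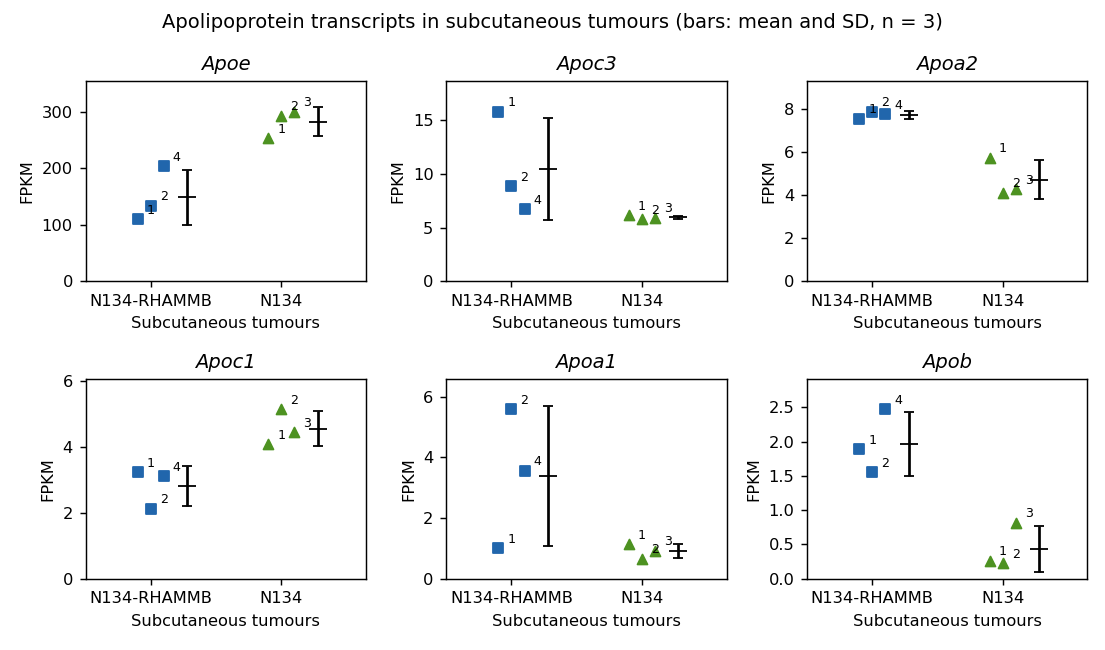
FPKM of the 6 members that passed the filter on subcutaneous libraries, with a panel for each gene, for N134-RHAMMB (squares) and N134 (triangles) tumours. Small numbers are the replicate labels, and black bars give the mean and SD (n = 3). Apob, Apoa2 and Apoc3 are higher and Apoe and Apoc1 lower in N134-RHAMMB tumours without overlap, and Apoa1 overlaps.

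The make-up of the apolipoprotein transcripts differed by site. Apoe took 34.0% to 35.9% of the summed FPKM of the 10 genes in metastases, against 78.6% to 89.4% in N134-RHAMMB and 93.5% to 94.8% in N134 tumours. Apoa2 took 23.7% to 26.5% in metastases, against 3.41% to 5.42% in N134-RHAMMB and 1.33% to 2.11% in N134 tumours. Apoa1 took 15.0% to 15.5% in metastases, against 0.725% to 3.50% in N134-RHAMMB and 0.214% to 0.419% in N134 tumours. Apoc3 took 5.41% to 5.67% in metastases and 2.96% to 11.4% in N134-RHAMMB tumours, ranges that overlap, and 1.86% to 2.25% in N134 tumours.

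**Figure D4:**
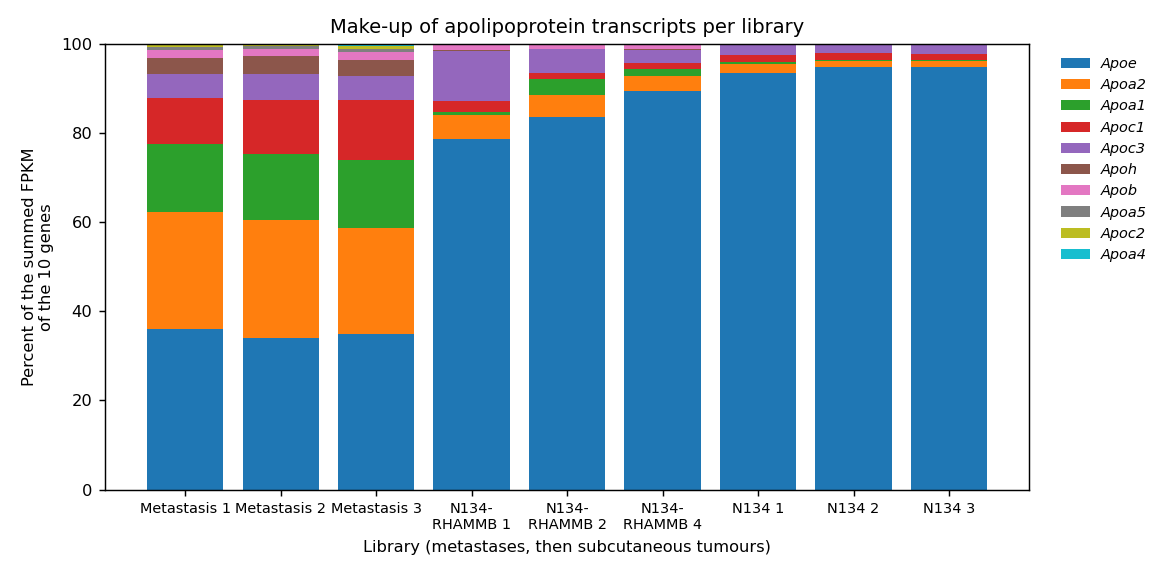
Share of each gene in the summed FPKM of the 10 apolipoproteins, in percent, 1 bar per library (metastases, N134-RHAMMB tumours, N134 tumours). Apoe fills 34.0% to 35.9% of the bar in metastases and at least 78.6% in subcutaneous tumours.

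Within metastases the order of levels was Apoe, Apoa2, Apoa1, Apoc1, Apoc3, Apoh, Apob, Apoa5, Apoc2 and Apoa4. The ranges of neighbours in this order did not overlap, except those of Apoa5 and Apoc2. In N134-RHAMMB tumours Apoe was followed by Apoc3 and Apoa2, whose ranges overlapped, and then by Apoa1, Apoc1 and Apob, whose ranges also overlapped. In N134 tumours Apoe was followed by Apoc3, then by Apoa2 and Apoc1, which overlapped, and then by Apoa1 and Apob, which overlapped too.

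Beside albumin (Alb), the most abundant plasma protein of hepatocytes, the members were not in 1 ratio. Alb stood at 1504, 1410 and 1609 FPKM in metastases, against 0.685, 0.720 and 0.481 FPKM in N134-RHAMMB and 1.60, 1.14 and 1.25 FPKM in N134 tumours. For every 100 FPKM of Alb there were 77.5 ± 6.54 FPKM of Apoe in metastases, against 25579 ± 14498 in N134-RHAMMB and 21947 ± 5308 in N134 tumours (SD, n = 3). For Apoc3 the ratio was 12.3 ± 1.69 in metastases, against 1644 ± 582 in N134-RHAMMB and 455 ± 64.7 in N134 tumours. For Apoa2 it was 56.9 ± 8.10 in metastases, against 1269 ± 297 in N134-RHAMMB and 355 ± 10.3 in N134 tumours. Apoh lay nearer to albumin, with 8.29 ± 1.55 in metastases, against 47.3 ± 48.6 in N134-RHAMMB and 12.8 ± 9.36 in N134 tumours. Its ratio ran from 7.77 to 102 within N134-RHAMMB tumours, where Apoh was at 0.489 FPKM or less. All ratios in subcutaneous tumours divide by an Alb of 1.60 FPKM or less, so their size depends on a low and uncertain value. Apoa5 and Apoc2 had 1.43 ± 0.228 and 1.33 ± 0.349 in metastases and 0 in all subcutaneous tumours.

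The genes on either side of the clusters were not called in metastases against N134-RHAMMB tumours, where 6.56% of genes tested were called. Sik3, beside Apoa1, stood at 8.75, 9.91 and 6.92 FPKM in metastases, against 9.84, 9.19 and 13.1 FPKM in N134-RHAMMB tumours (limma adjusted p = 0.509). Zpr1, beside Apoa5, stood at 24.4, 42.5 and 22.8 FPKM in metastases, against 31.1, 13.8 and 24.0 FPKM in N134-RHAMMB tumours (adjusted p = 0.622). Clptm1, beside Apoc2, stood at 40.7, 38.2 and 37.0 FPKM in metastases, against 49.6, 45.1 and 48.7 FPKM in N134-RHAMMB tumours (adjusted p = 0.160). Tomm40, beside Apoe, stood at 18.8, 25.2 and 18.3 FPKM in metastases, against 21.8, 17.2 and 25.3 FPKM in N134-RHAMMB tumours (adjusted p = 0.948). Apoc4, inside the chromosome 7 cluster, stood at 78.6, 97.7 and 100.5 FPKM in metastases, against 0, 0.206 and 0.416 FPKM in N134-RHAMMB tumours. Apoc4 reached the filter only through metastases, so it had to differ and is given with no test. Of these 4 flanking genes, Clptm1 lay lower in metastases without overlap, and the other three overlapped.

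**Figure D5:**
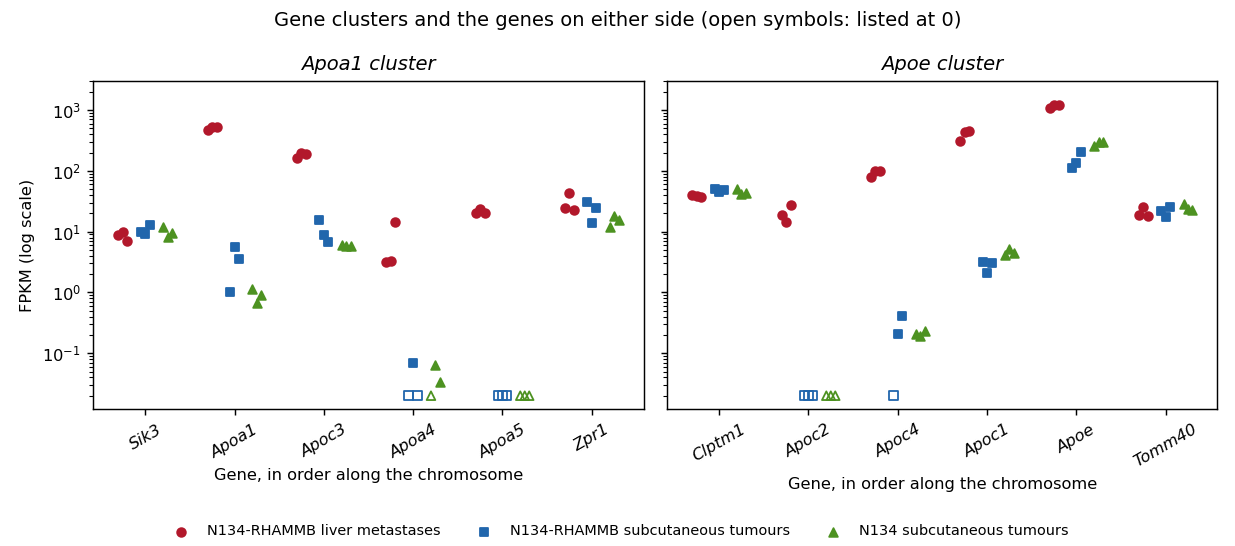
FPKM on a log axis of the genes of the Apoa1 cluster (left) and the Apoe cluster (right) in chromosomal order, with the nearest gene on each side, 1 point per library. Open symbols are libraries listed at 0. Apolipoprotein genes are higher in metastases than in subcutaneous tumours, while Sik3, Zpr1 and Tomm40 overlap between metastases and N134-RHAMMB tumours and Clptm1 lies slightly lower in metastases.

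For each member the gene outside the 10 with the most similar pattern was found by the mean absolute difference of centred log2(FPKM + 1) over the 9 libraries. Apoe was closest to Cat, the peroxisomal enzyme catalase (0.203). Cat averaged 51.0 FPKM in metastases, against 6.60 FPKM in N134-RHAMMB and 9.17 FPKM in N134 tumours. Apoa2 was closest to Serpinc1, antithrombin (0.242), and Apoh to Fga, a fibrinogen chain (0.148), while Apoa5 was closest to C8a, a complement component (0.0599). Apob was closest to Trf, transferrin (0.331), which averaged 1336 FPKM in metastases, against 40.3 FPKM in N134-RHAMMB and 22.5 FPKM in N134 tumours. Apoc3 was closest to Mbl2, a mannose-binding lectin (0.20), and Apoc1 to the reductase Akr1c6 (0.183). Apoa1 was closest to Serpina3k (0.539), the loosest of these matches and less near than the member Apoa2 (0.487), and the near-identical copies of Serpina3k make its value uncertain. The libraries share their groups, so these distances describe the 9 samples only.

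Other apolipoprotein genes outside the 10 split. Of 13 tested, 8 rose and 1 fell in metastases against N134-RHAMMB tumours, with a median log2 change of 3.11. Apoc4, Apof, Apom, Apon, Saa1, Saa2 and Saa4 stayed under 1 FPKM in every subcutaneous tumour. They reached the filter only through metastases and had to differ, so this count and median rest in part on the filter. Apoc4 rose by 6.28, and Clu (apolipoprotein J, an extracellular chaperone) stood at 129, 143 and 118 FPKM in metastases, against 2.49, 2.81 and 4.91 FPKM in N134-RHAMMB tumours (4.93, limma adjusted p = 7.86e-08). Apof rose by 3.91, and the acute-phase protein Saa1 by 3.77, with metastasis 2 the highest at 26.2 FPKM. The one that fell was Apod, a lipocalin, which was named after its values were seen (-1.34, limma adjusted p = 0.0150). Between N134-RHAMMB and N134 tumours limma called 0 of the 13 (2 at an unadjusted p under 0.05), and Saa3 (-1.61, adjusted p = 0.357) and Apold1 (-0.61, adjusted p = 0.238) differed most.

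In the pathway that loads and secretes apolipoprotein B particles, 7 of 18 genes rose and 0 fell in metastases against N134-RHAMMB tumours (median 0.16). Cideb, which fuses lipid into VLDL, stood at 8.52 to 11.7 FPKM in metastases, against 0.0640, 0 and 0.0679 FPKM in N134-RHAMMB tumours (3.40). Pla2g12b stood at 3.34 to 4.13 FPKM in metastases, against 0 in every subcutaneous tumour. Both genes reached the filter only through metastases and had to differ, so the count of 7 rests in part on the filter. Mttp, the transfer protein that lipidates apolipoprotein B, stood at 9.25, 10.3 and 10.8 FPKM in metastases, against 4.34, 4.64 and 4.06 FPKM in N134-RHAMMB tumours (1.05, limma adjusted p = 7.37e-04). Cidec, a lipid droplet protein of fat, had a log2 change of -1.34 (adjusted p = 0.105). Apobec1, the enzyme that edits the Apob transcript, stood at 11.9, 14.8 and 14.5 FPKM in metastases, against 13.0, 11.2 and 16.4 FPKM in N134-RHAMMB tumours (0.03, adjusted p = 0.967). Between N134-RHAMMB and N134 tumours limma called 0 of 18 (3 at an unadjusted p under 0.05), and Cidec (-0.40, adjusted p = 0.740) and Apobec1 (-0.40, adjusted p = 0.424) differed most.

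Of 14 lipoprotein receptors and their partners tested, limma called 0 in metastases against N134-RHAMMB tumours (2 at an unadjusted p under 0.05). It also called 0 in N134-RHAMMB against N134 tumours (4 at an unadjusted p under 0.05). The median log2 change in metastases against N134-RHAMMB tumours was -0.00023. Against N134 tumours metastases had 4 calls (5 at an unadjusted p under 0.05), named after their values were seen, with Sdc1 (0.88) and Lsr (0.61) higher and Cd36 (-1.50) and Mylip (-0.75) lower. Cd36, a fatty acid and lipoprotein scavenger receptor, stood at -1.05 (limma adjusted p = 0.0651), Amn at -0.93 (adjusted p = 0.0565), Sorl1 at 0.54 (adjusted p = 0.472) and Vldlr, which binds apolipoprotein E, at 0.37 (adjusted p = 0.515). Between N134-RHAMMB and N134 tumours, the log2 difference of Amn was 0.75 (limma adjusted p = 0.252).

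Among lipases and HDL-remodelling proteins, 6 of 17 rose and 1 fell in metastases against N134-RHAMMB tumours (median 0.37). Pon1, an HDL-bound esterase, stood at 31.6, 43.5 and 37.9 FPKM in metastases, against 0.143, 0 and 0.150 FPKM in N134-RHAMMB tumours (5.13). Lcat, which esterifies HDL cholesterol, rose by 3.56 and the hepatic lipase Lipc by 2.29. Pon1, Lcat and Lipc reached the filter only through metastases and had to differ, so the count of 6 rests in part on the filter. The one that fell was Pltp, the phospholipid transfer protein (-1.06, limma adjusted p = 0.0169), named after its values were seen. Limma called 0 of the 17 between N134-RHAMMB and N134 tumours (5 at an unadjusted p under 0.05), where Angptl4 (-0.82, adjusted p = 0.377) and Pltp (-0.65, adjusted p = 0.275) differed most.

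Of 20 transcription factors that regulate apolipoprotein genes, 6 rose and 1 fell in metastases against N134-RHAMMB tumours (median 0.17). Nr1h4, the bile acid receptor, rose by 2.02, Ppara, the fatty acid receptor of hepatocytes, by 1.55, Foxa3 by 1.28 and Nr5a2 by 1.20. These genes reached the filter only through metastases, so the filter favoured a rise, and the count of 6 rests in part on them. Hnf4a, a nuclear receptor that acts on many apolipoprotein genes and was named after its values were seen, stood at 38.6, 29.3 and 41.4 FPKM in metastases. It measured 36.6, 29.5 and 37.2 FPKM in N134-RHAMMB tumours, against 36.0, 34.1 and 37.2 FPKM in N134 tumours, with overlap in each comparison (0.07 for metastases against N134-RHAMMB tumours, limma adjusted p = 0.888). The factor that fell was Pparg, the adipocyte regulator (-0.65, limma adjusted p = 0.0431), also named after its values were seen. Between N134-RHAMMB and N134 tumours limma called 0 of 20 (2 at an unadjusted p under 0.05), and Nr1d1 (-0.55, adjusted p = 0.430) and Foxa3 (0.51, adjusted p = 0.247) differed most.

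Markers of cells that make apolipoproteins were read beside these values. All 25 hepatocyte markers were called higher in metastases against N134-RHAMMB tumours, with a median of 5.49, beside 5.46 for the 6 apolipoproteins. Alb (9.86), Ahsg (8.46), Hpx (8.25) and Serpinc1 (6.97) changed most. Ahsg, Hpx, Serpinc1 and others of this list reached the filter only through metastases, so its count and median rest in part on the filter. Of the Kupffer cell markers, 2 of 6 rose (C6 by 3.77, and Clec4f, at 1.93, 5.22 and 1.69 FPKM in metastases against 0 in each N134-RHAMMB tumour) and 1 fell (Folr2 by 1.89). C6 and Clec4f also reached the filter only through metastases. The Kupffer cell list summed to 20.5 to 30.6 FPKM in metastases, against 6.31 to 11.9 FPKM in N134-RHAMMB and 5.79 to 26.0 FPKM in N134 tumours. Without C6 the ranges overlapped, at 4.89 to 12.0 FPKM in metastases, against 6.12 to 11.4 FPKM in N134-RHAMMB and 5.49 to 25.6 FPKM in N134 tumours. Limma called 0 of 16 macrophage markers in metastases against N134-RHAMMB tumours (7 at an unadjusted p under 0.05, median -0.52), and called 13 of 16 lower against N134 tumours.

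Limma called 0 of 5 enterocyte markers in metastases against N134-RHAMMB tumours (1 at an unadjusted p under 0.05), and Alpi, the intestinal alkaline phosphatase, was listed at 0 in all 9 libraries. Fabp2, the intestinal fatty acid binding protein, stood at 0.861, 1.53 and 6.0 FPKM in metastases and at 0 in all subcutaneous tumours, with metastasis 3 the highest, as for Apoa4. Of 3 glial markers Aldh1l1 rose (4.58), having reached the filter only through metastases, and 2 were not called. Gfap, which defines astrocytes, stood at 0.0866 FPKM or less in metastases and at 0.0952 FPKM or less in subcutaneous tumours. Of 5 adipocyte markers Cfd (-2.14) and Fabp4 (-1.44) fell, and of 3 muscle markers Mylpf fell (-3.12). Of 14 beta cell markers Mafa rose (0.91) and Chgb fell (-1.36), and of 5 alpha cell markers Ttr rose (0.63) and 4 were not called. A call of a single gene, as for Aldh1l1 and Ttr, does not show that the cell type of its list was present. In these 9 marker lists limma called 0 of 82 genes between N134-RHAMMB and N134 tumours, beside 0.194% of all genes tested. At an unadjusted p under 0.05 there were 27 of the 82, and 13 of these were macrophage markers, beside 12.8% of all genes tested. The part of these cells in the apolipoprotein levels was not tested.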

How the data were processed

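Total RNA of 9 tumour samples was extracted with a Qiagen miRNeasy kit and shredder columns, per the labels' protocols. GRCm38, Cufflinks 2.1.1, STAR 2.5.2 and bcl2fastq 2.19 are named in the submitters' processing notes. Tool roles, library kit and strand are not stated in these sources. The authors deposited FPKM values for 22053 protein-coding rows, per the file headers. They are scaled to length and library before deposit, so one value drops where others claim a larger share.

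Of the rows, 7 with a failed estimate and 102 that repeat a symbol were left out, which gave 21944 genes. The 12854 genes with at least 1 FPKM in 3 libraries were tested as log2(FPKM + 1), a scale that understates changes of low genes. Limma 3.58.1 in R 4.3.3 fitted 1 model to all 9 libraries, with an intensity trend, 2-sided tests and Benjamini-Hochberg adjustment over all genes at 0.05. It was tested on simulated data. An exact permutation test of 3 against 3 has 0.1 as its smallest p and was not run. Where a group is listed at 0 no fold is given. Depth was estimated from the FPKM of single fragments in low genes, and arises from no deposited count. Starts have 1 added, since 82.3% of rows matched to GENCODE began 1 base lower. Figures used Python 3.11.15.

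The members and gene lists were chosen with earlier results of these data known. Named genes are the 10 members, the 4 genes of each list with the largest change in metastases against N134-RHAMMB tumours and the 2 with the largest in N134-RHAMMB against N134 tumours, defining markers at or near 0, the most alike genes and the flanking genes. Others are said to be named after their values were seen, and some genes that the rule names are not reported here. Alternatives were other pseudocounts, filters, scalings, variance models and library weights, only 2 groups, the replicate number as a block, and libraries left out.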

Additional observations from a re-analysis of the deposited data

How the results depend on the processing

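For the 6 members that passed the filter on subcutaneous libraries, log2 changes kept their direction in the 3 comparisons under the 21 alternatives run, and their calls in metastases against either kind of tumour held. In metastases against N134-RHAMMB tumours limma called 843 genes, but 347 at a mean of at least 5 FPKM, 1950 with library weights, 504 without N134-RHAMMB tumours 2 and 4, and 650 to 1137 with 1 library left out. In metastases against N134 tumours it called 1276, but 594 at a mean of at least 5 FPKM and 882 to 1571 with 1 library left out. In N134-RHAMMB against N134 tumours the 25 calls became 15 at a mean of at least 5 FPKM, 2629 with library weights, 169 with only the 2 groups and 1 without N134-RHAMMB tumours 2 and 4. They were 0 without N134 tumour 1, 2 or 3, 8, 2 and 2 when N134-RHAMMB tumour 1, 2 or 4 was left out, and 193 without metastasis 2. Of the members, 1 was called with quantile normalization (Apob, adjusted p = 0.0400) and 5 with library weights (Apoe, Apoa2, Apob, Apoc1 and Apoc3). With 1 library left out 0 to 3 were called: Apoa1 without N134-RHAMMB tumour 1 (adjusted p = 0.0417), Apoe without tumour 4, and Apoa2, Apob and Apoe without metastasis 2 (adjusted p = 0.0401, 0.0339 and 0.0445). The cause was not tested. Without N134-RHAMMB tumours 2 and 4 the lone tumour is assumed to vary like the other groups.

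Correlations of same-numbered libraries were -0.0027 to 0.102, all but the lowest above 0. Those of differently numbered libraries were -0.195 to 0.15, a range that holds the former, so weak pairing could not be told from these values. With the replicate block limma called 646, 1 and 1097 genes in metastases against N134-RHAMMB tumours, N134-RHAMMB against N134 tumours and metastases against N134 tumours, and the block changed no call of a member. Depth limits the genes under 1 FPKM, where Apoh in subcutaneous tumours rests on few fragments.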

Other observations

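Metastasis 3 held the most Apoa4 (14.2 FPKM, against 3.18 and 3.32 FPKM in metastases 1 and 2), and 2 fatty acid binding proteins, chosen after their values were seen, were highest there too. Fabp1, the form of liver and intestine, stood at 54.0, 93.0 and 230 FPKM in metastases 1, 2 and 3, against 0, 0 and 0.163 FPKM in N134-RHAMMB tumours. Fabp2, the intestinal form, stood at 0.861, 1.53 and 6.0 FPKM in metastases and was listed at 0 in the subcutaneous tumours. Alb, at 1504, 1410 and 1609 FPKM in the same metastases, varied far less.

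Metastasis 2 held the most Saa1 and Saa2, acute-phase apolipoproteins of HDL also chosen after their values were seen, at 26.2 and 17.0 FPKM. Apoa2 was also highest there, at 808, 932 and 817 FPKM in metastases 1, 2 and 3, as were Apoh (142 FPKM), Apoa5 (23.7 FPKM) and Apoc3 (200 FPKM). Apoa1, Apob and Apoe had metastasis 2 in the middle, at 529, 57.4 and 1199 FPKM.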
